A study of Mus musculus with 12 samples.

Results

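DNA methylation at 10 genes of the T and NK cell lineages was described through 38 regions, out of 107115 candidate regions tabulated in whole-genome methylation sequencing of mouse bone marrow progenitors. The genes were Tcf7, Gata3, Lef1, Tbx21, Eomes, Ptcra, Lck, Zap70, Lat and Thy1, that is, lineage genes other than Bcl11b. The cells were lineage-negative (lin-) bone marrow progenitors of BALB/c mice, that is, marrow from which mature blood cells had been removed by their surface markers. One group carried a mutation of Dnmt1, the enzyme that copies methylation onto the newly made DNA strand, and the other was wild type. The labels write the mutant genotype as dnmt1-/-, whereas the series describes a missense mutation designed from hypomorphic alleles of fish that affect lymphoid development. Age, sex, pooling of animals and any further allele were not stated. There were 12 libraries, 6 per genotype: replicate numbers 1 to 3 in each genotype, each with 1 library of a bisulfite kit (TruSeqMeth) and 1 of an enzymatic kit (EMSeq). Levels were deposited for 3 mutant and 3 wild-type columns, 1 for each number, which makes n = 3 per genotype and leaves the kits inseparable. The columns are called replicates here.

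Of the 38 regions, 26 came from the list of 35439 regions that the authors called hypomethylated in the mutant, being attributed to 1 of the 10 genes at a distance of at most 5000 bp. The other 12 lay between the first and last such region of a gene and were in neither the hypomethylated list nor the list of 4 hypermethylated regions. Every region of the hypomethylated list had a deposited loss of at least 20 percentage points and at least 10 CpGs, on these same samples, so the losses of the 26 are a description. In the authors' deposited table, the distance was 0 for 24 of the 26, 1871 bp for a region past the end of Lef1 and 3703 bp for one past the end of Lat. The nearest region attributed to 1 of the 10 genes beyond the limit lay upstream of Thy1 at a distance of -27908 bp. The authors' deposited table gives it 58.6% in mutant cells and 88.0% in wild-type cells. Differences in this text are mutant minus wild type, from the replicates. The one nearest 0 among the 26 was -20.5 points, at Lef1, and the one farthest from 0 among the 12 was -18.2 points, at Tcf7. Levels are given in percent as the mean over a region without read counts, so the depth is unknown. A level averages over all cells of the sample, so complete loss in some cells and partial loss in every cell cannot be told apart. No expression was measured in these files, and the label of the cells could not be checked against their markers. The labels do not say that the replicates are separate animals. The p-values set a difference against the spread among these samples, which may be only technical.

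T cells arise from marrow progenitors that settle in the thymus, where Notch signals switch on a set of transcription factors, and these in turn switch on the genes of the T cell receptor and its signalling chain. NK cells are innate lymphocytes that share the T-box factors T-bet and Eomes with effector T cells. Dnmt1 acts after replication, restoring methyl groups on the new strand of CpGs that were methylated on the old one, so that a pattern passes through cell division.

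RefSeq start windows (250 bases before to 50 after a start, build GRCm38.p6, the assembly that mm10 names) were matched for 9 of the 10 genes, with 16 windows, and none for Thy1. Of these windows 4 lay wholly inside a candidate region: the outer and inner start of Lck and the first and an internal start of Zap70. The 250 bases before each of these starts are shown because levels around these starts are described with their genes, with every CpG in capitals.
Lck inner start (chr4:129558373-129558622, minus strand): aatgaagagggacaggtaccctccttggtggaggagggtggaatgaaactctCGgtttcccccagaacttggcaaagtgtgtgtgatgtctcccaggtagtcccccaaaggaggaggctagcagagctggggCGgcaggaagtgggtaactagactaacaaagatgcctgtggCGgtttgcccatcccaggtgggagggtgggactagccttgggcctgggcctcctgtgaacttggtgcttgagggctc
Lck outer start (chr4:129573642-129573891, minus strand): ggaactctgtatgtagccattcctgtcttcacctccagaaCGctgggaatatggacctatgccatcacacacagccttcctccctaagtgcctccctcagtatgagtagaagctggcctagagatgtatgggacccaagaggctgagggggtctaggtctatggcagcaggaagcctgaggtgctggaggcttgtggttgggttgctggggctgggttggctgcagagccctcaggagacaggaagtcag
Zap70 first start (chr1:36761548-36761797, plus strand): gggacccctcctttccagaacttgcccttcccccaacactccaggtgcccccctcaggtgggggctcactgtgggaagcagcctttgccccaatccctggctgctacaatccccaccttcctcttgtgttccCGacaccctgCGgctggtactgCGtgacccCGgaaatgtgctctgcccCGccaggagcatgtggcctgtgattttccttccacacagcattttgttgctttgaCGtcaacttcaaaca
Zap70 internal start (chr1:36778734-36778983, plus strand): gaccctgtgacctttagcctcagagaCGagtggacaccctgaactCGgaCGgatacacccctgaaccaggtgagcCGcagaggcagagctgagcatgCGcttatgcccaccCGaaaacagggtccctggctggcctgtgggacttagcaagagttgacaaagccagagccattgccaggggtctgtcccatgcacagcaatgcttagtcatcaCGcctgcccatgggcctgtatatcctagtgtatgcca
These stretches held 3, 1, 6 and 7 CpGs in that order. On either strand, TGTGGT, a motif of RUNX factors, was found 58 bases before the outer Lck start. At the first Zap70 start, CTTTGA, a motif of TCF-1 and LEF-1, was found 21 bases before the start and CCGGAA, a motif of Ets factors, 89 bases before it, with no overlap between matches. AGATAA, which zinc finger factors such as the product of Gata3 bind, was found in none of the 4. Over the same 250 bases of all 32851 windows, TGTGGT was present in 14.0%, CTTTGA in 13.8%, CCGGAA in 12.0% and AGATAA in 9.99%. The matches describe these letters only.

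Methylation was lower in the mutant at all 38 regions, with differences between -53.5 and -9.78 points. Over the 26 listed regions the mean level was 47.8%, 48.9% and 52.0% in mutant replicates 1 to 3, against 76.2%, 77.8% and 78.2% in wild-type replicates 1 to 3. These averaged 49.6% ± 2.18 in mutant cells, against 77.4% ± 1.05 in wild-type cells (SD, n = 3 each), a difference of -27.9 points, and the groups did not overlap. All 35439 listed regions averaged 48.4% in mutant cells, against 76.8% in wild-type cells, and the median difference was -24.2 points for the 26 and -26.1 points for all listed regions. Over the 12 unlisted regions the mean level was 60.0%, 63.0% and 64.1% in mutant replicates 1 to 3, against 76.0%, 76.7% and 76.8% in wild-type replicates 1 to 3. This gave 62.4% ± 2.10 in mutant cells, against 76.5% ± 0.434 in wild-type cells (SD, n = 3 each), a difference of -14.1 points, again without overlap. Their median difference of -14.6 points stood beside -13.5 points for all 71672 unlisted candidate regions. Candidate regions were tabulated from these same samples.

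By limma with Benjamini-Hochberg adjustment over all candidate regions, 38 of 38 regions were called lower at an adjusted p under 0.05 and 0 higher, where 93.5% of all candidate regions were called lower and 0.0485% higher. With a loss of at least 20 points also required, 26 of 38 were called, against 34.4% of all candidate regions. At all 38 the highest mutant replicate was below the lowest wild-type one, as at 94.3% of candidate regions, and at 0 of 38 the order was the opposite, as at 0.0952%. Since the rule took the regions from this contrast, these counts are not evidence about the genes. The range among mutant replicates was between 1.0 and 18.9 points and that among wild-type replicates between 0.571 and 22.3 points. Replicate 1 was the lowest mutant replicate at 19 of 38 regions and at 59.7% of all candidate regions.

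**Figure D1:**
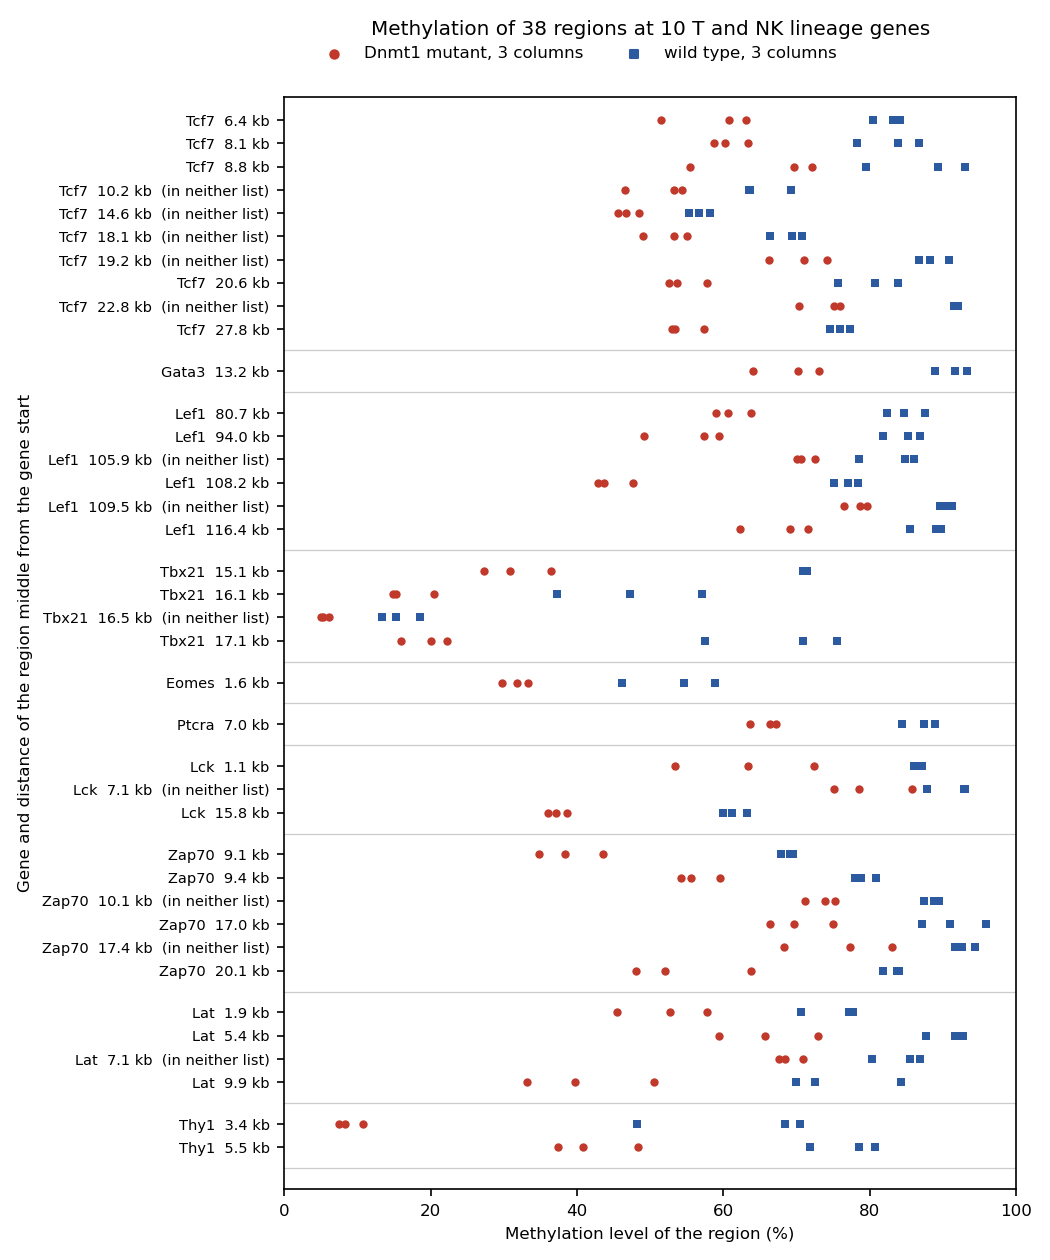
Methylation level (x axis, %) of each of the 38 regions (rows, by gene and by distance of the region middle from the gene start in kb), with 1 point per replicate (circles, Dnmt1 mutant; squares, wild type). Mutant points lie left of wild-type points in every row, and the lowest mutant levels are at Tbx21 and Thy1.

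Over listed regions alone, the transcription factor genes of early T cell development kept 68.4% (Lef1), 72.0% (Tcf7) and 75.7% (Gata3) of their wild-type level. Tcf7, which encodes TCF-1, an HMG-box factor induced by Notch at the outset of T cell development, held 10 regions over 22.5 kb of its body on chromosome 11, 5 of them listed. Averaged over all 10, its level was 55.5%, 59.5% and 61.7% in mutant replicates 1 to 3, against 77.0%, 77.9% and 79.3% in wild-type replicates 1 to 3. The difference was -19.1 points over all 10 regions, -22.9 over the 5 listed and -15.3 over the 5 unlisted, and the groups did not overlap. Among its regions the largest loss was -25.4 points (chromosome 11, 52262387 to 52263192), with 54.7% ± 2.73 in mutant cells, against 80.1% ± 4.08 in wild-type cells (SD, n = 3 each). The smallest was -9.78 points, at a region of intermediate level (chromosome 11, 52268444 to 52269202), where values were 45.7%, 46.7% and 48.4% in mutant replicates 1 to 3, against 56.7%, 55.3% and 58.2% in wild-type replicates 1 to 3. These replicates did not overlap (limma SE 2.08, adjusted p = 0.00193). The region at 52274323 to 52274892 had one of the widest spreads in the mutant, with 55.5%, 72.1% and 69.6% in mutant replicates 1 to 3, against 79.5%, 89.3% and 93.1% in wild-type replicates 1 to 3.

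Lef1, an HMG-box partner of TCF-1, held 6 regions, all between 70.8% and 102% of its length from the start, that is, toward or just past its 3′ end. This position follows from the rule. Of 13 further candidate regions within 5 kb of Lef1, 10 were called lower, beside 93.5% of all candidate regions. Their largest loss was -16.0 points. Averaged over the 6 selected regions of Lef1, the level was 62.8%, 60.6% and 65.8% in mutant replicates 1 to 3, against 85.7%, 84.7% and 83.5% in wild-type replicates 1 to 3, a difference of -21.6 points. Its region with the largest loss (chromosome 3, 131218351 to 131218679) had 44.7% ± 2.56 in mutant cells, against 76.9% ± 1.67 in wild-type cells (SD, n = 3 each), a difference of -32.1 points. The unlisted region next to it, at 131219145 to 131220542, had 78.3% ± 1.58 in mutant cells, against 90.3% ± 0.888 in wild-type cells (SD, n = 3 each), a difference of -12.1 points. Gata3, a zinc finger factor that T cell commitment requires, held a single region (chromosome 2, 9874338 to 9875190), which had 28 CpGs in the authors' deposited table. Its level was 64.1%, 73.1% and 70.1% in mutant replicates 1 to 3, against 93.3%, 91.7% and 88.9% in wild-type replicates 1 to 3. The groups were separate, with a difference of -22.2 points and 75.7% of the wild-type level kept.

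The regions of the T-box genes of effector T cells and NK cells had lower average levels than those of the 3 genes above in both genotypes. Tbx21, which encodes T-bet, the factor that drives the interferon-gamma programme, held 4 regions within 2.58 kb at the 3′ end of its span, between 87.2% and 98.6% of the gene's length. From the side of the gene start, the first (chromosome 11, 97099811 to 97100624) had 30.8%, 27.3% and 36.4% in mutant replicates 1 to 3, against 70.8%, 71.4% and 70.8% in wild-type replicates 1 to 3. The second (97099085 to 97099370) had 15.2%, 20.5% and 14.9% in mutant replicates 1 to 3, against 57.1%, 37.3% and 47.3% in wild-type replicates 1 to 3. Wild-type replicates were close together in the first of these and 19.8 points apart in the second. The third, unlisted (97098515 to 97099067), had 6.07%, 5.29% and 5.07% in mutant replicates 1 to 3, against 13.4%, 18.5% and 15.3% in wild-type replicates 1 to 3. The last (97098044 to 97098449) had 20.1%, 15.9% and 22.2% in mutant replicates 1 to 3, against 57.4%, 70.9% and 75.6% in wild-type replicates 1 to 3. In each the groups were separate, with differences of -39.5, -30.4, -10.2 and -48.6 points in that order. The mutant kept 44.4%, 35.7%, 34.8% and 28.6% of the wild-type level, which itself ran between 15.7% and 71.0%. With 1 region of Thy1 these 4 were the only regions of the 38 (13.2%) to keep less than 50%, beside 10.8% of all candidate regions. Among listed regions these were 4 of 26 (15.4%), beside 18.7% of all listed regions. Among unlisted ones it was 1 of 12 (8.33%), beside 6.95% of all unlisted candidate regions. Among all listed regions, 2.36% lost more points than the last one. Further toward the gene start, 2 candidate regions of Tbx21 that the selection did not include kept 52.6% (97101674 to 97102178; 9.74% in mutant cells, against 18.5% in wild-type cells) and 79.4% (97103892 to 97104364; 59.1% and 74.5% in the same order).

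Eomes, the T-box factor of NK cells and memory CD8 T cells, held 1 region 1.63 kb inside its start (chromosome 9, 118479688 to 118479948). Its level was 31.8%, 29.8% and 33.3% in mutant replicates 1 to 3, against 46.2%, 54.7% and 58.9% in wild-type replicates 1 to 3. Wild-type replicates spread over 12.7 points and mutant replicates over 3.56, and the groups did not overlap at a difference of -21.6 points (limma SE 3.27, adjusted p = 0.000328).

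**Figure D2:**
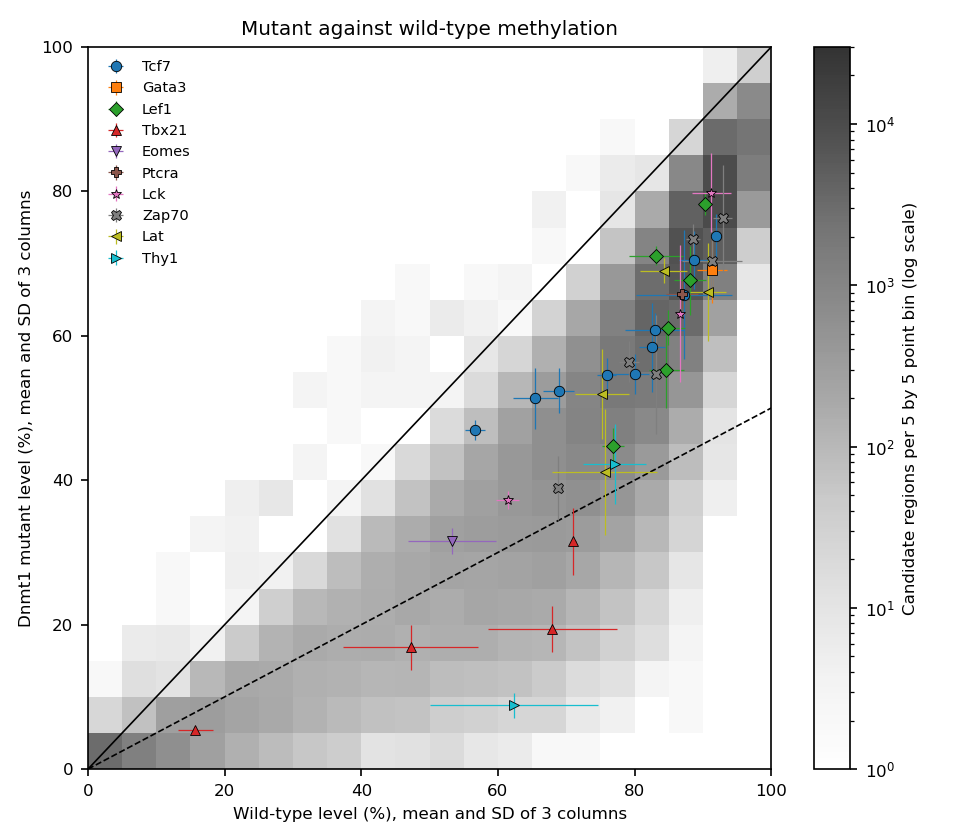
Mean level in the mutant (y axis, %) against mean level in the wild type (x axis, %) for the 38 regions, with SD of 3 replicates as bars; grey shows the number of all 107115 candidate regions per bin on a log scale, the solid line equality and the dashed line a mutant level of 50% of wild type. The 4 regions of Tbx21 and 1 of Thy1 lie below the dashed line.

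Over listed regions alone, the genes of T cell receptor signalling had averages that differed by -27.5 points (Lat), -25.6 points (Zap70), -23.9 points (Lck) and -21.2 points (Ptcra). Ptcra, which encodes the pre-T cell receptor alpha chain that pairs with the first rearranged beta chain, held 1 region near its 3′ end (chromosome 17, 46756262 to 46757132). Its level was 63.6%, 66.4% and 67.2% in mutant replicates 1 to 3, against 84.5%, 89.0% and 87.4% in wild-type replicates 1 to 3, a difference of -21.2 points. Lck encodes the Src-family kinase that sits on the CD4 and CD8 coreceptors and phosphorylates the CD3 chains, and in mouse it is transcribed from a pair of promoters that are used to different degrees in thymocytes and mature T cells. The region around its inner start (chromosome 4, 129557058 to 129558643), which contains the whole window of the inner start printed above and the microRNA gene Mir8119, had 38.7%, 37.1% and 36.1% in mutant replicates 1 to 3, against 59.9%, 63.2% and 61.2% in wild-type replicates 1 to 3. Replicates within a genotype differed by at most 3.30 points against a difference of -24.2 points. The outer start lay in a candidate region that was not part of the selection (129573580 to 129574381), with 41.5%, 41.6% and 41.7% in mutant replicates 1 to 3, against 49.7%, 52.7% and 58.3% in wild-type replicates 1 to 3. That region was separate between the groups, with a difference of -12.0 points (limma SE 2.57, adjusted p = 0.00204). The difference between the starts was not tested. The listed region 667 bp inside the outer start (129572161 to 129572974) had the widest range of any mutant set, with 53.4%, 63.4% and 72.3% in mutant replicates 1 to 3, against 86.0%, 86.7% and 87.2% in wild-type replicates 1 to 3. Between the starts, the unlisted region at 129566376 to 129566779 had 79.8% ± 5.44 in mutant cells, against 91.3% ± 2.92 in wild-type cells (SD, n = 3 each) and a difference of -11.4 points, and its highest mutant replicate, at 85.8%, was close to its lowest wild-type replicate, at 87.9%.

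Zap70, the kinase that binds phosphorylated CD3 chains and is itself activated by Lck, held 6 regions, 4 of them listed. The average over all 6 was 58.4%, 63.8% and 62.9% in mutant replicates 1 to 3, against 83.0%, 84.2% and 84.8% in wild-type replicates 1 to 3, a difference of -22.3 points. The region with the most CpGs of the 38 lay across the 3′ end of Zap70 (chromosome 1, 36780597 to 36783258), with 49 CpGs in the authors' deposited table, and had 48.0%, 52.1% and 63.9% in mutant replicates 1 to 3, against 81.9%, 84.0% and 83.8% in wild-type replicates 1 to 3. The largest loss was at the region with the next highest number of CpGs, 32 in the authors' deposited table (chromosome 1, 36770749 to 36771052), which had 34.8%, 43.5% and 38.4% in mutant replicates 1 to 3, against 67.8%, 69.5% and 69.1% in wild-type replicates 1 to 3. A second listed region began 29 bp after it (36771081 to 36771240) and had 56.4% ± 2.81 in mutant cells, against 79.2% ± 1.45 in wild-type cells (SD, n = 3 each), higher in both genotypes. The region that contains the whole window of the internal start (36778609 to 36779084) had 69.7%, 75.0% and 66.4% in mutant replicates 1 to 3, against 87.1%, 91.0% and 95.9% in wild-type replicates 1 to 3, a difference of -21.0 points. At the first start, the candidate region outside the selection (36761480 to 36762340) had 67.9%, 68.1% and 71.8% in mutant replicates 1 to 3, against 87.9%, 86.3% and 86.3% in wild-type replicates 1 to 3, and a difference of -17.6 points (limma SE 2.13, adjusted p = 0.000109). The groups were separate at these 2 Zap70 starts, and the levels were higher at each than at the 2 starts of Lck. A further Zap70 start, at 36764515, overlapped no candidate region.

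Lat, the membrane adaptor that Zap70 phosphorylates, held 4 regions, 3 of them listed. The average over all 4 was 56.1%, 53.3% and 61.8% in mutant replicates 1 to 3, against 83.8%, 80.4% and 80.1% in wild-type replicates 1 to 3, a difference of -24.4 points. The largest loss, -34.5 points, was downstream of the gene (chromosome 7, 126359549 to 126360121), with 33.2%, 39.7% and 50.6% in mutant replicates 1 to 3, against 84.3%, 70.0% and 72.6% in wild-type replicates 1 to 3. Its mutant replicates spread over 17.3 points and its wild-type replicates over 14.3, without overlap. A region 1.88 kb inside the start of Lat (126367520 to 126368128) contained the microRNA gene Mir7058 and had 52.0% ± 6.20 in mutant cells, against 75.2% ± 3.95 in wild-type cells (SD, n = 3 each). The hairpins of both microRNA genes are shown as stretches of sequence inside 2 of the regions, in RNA letters with each CpG in capitals.
Mir8119 hairpin in the Lck region (chr4:129557683-129557811, minus strand): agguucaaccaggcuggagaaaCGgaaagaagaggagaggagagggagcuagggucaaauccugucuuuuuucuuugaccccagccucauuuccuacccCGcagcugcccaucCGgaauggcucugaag
Mir7058 hairpin in the Lat region (chr7:126367971-126368045, minus strand): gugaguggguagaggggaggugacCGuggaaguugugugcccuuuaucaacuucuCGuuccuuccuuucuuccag
They held 3 and 2 CpGs, and a region's level is not resolved to these positions.

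Thy1, the small surface glycoprotein by which mouse T cells are recognised, had the largest loss of the 38 regions. Its first region (chromosome 9, 44046567 to 44046910), 3.35 kb inside the gene, had 8.27%, 10.8% and 7.45% in mutant replicates 1 to 3, against 48.2%, 70.5% and 68.5% in wild-type replicates 1 to 3. All mutant replicates were far below all wild-type replicates, and wild-type replicate 1 was below the other wild-type replicates. The level was 8.85% ± 1.75 in mutant cells, against 62.4% ± 12.3 in wild-type cells (SD, n = 3 each), a difference of -53.5 points with 14.2% of the wild-type level kept. Among all listed regions, 1.04% lost more points. The second region, across the 3′ end of the gene (44048534 to 44049179), had 48.3%, 37.4% and 40.9% in mutant replicates 1 to 3, against 71.9%, 80.8% and 78.6% in wild-type replicates 1 to 3. It kept 54.8%, and the groups were separate at a difference of -34.9 points. Over listed regions alone, the gene averages differed by -44.2 points at Thy1, -39.5 points at Tbx21 and between -27.5 points (Lat) and -21.2 points (Ptcra) at the other 8 genes. With unlisted regions included, Tbx21 was at -32.2 points and the other 8 were between -24.4 points (Lat) and -19.1 points (Tcf7). The order of those 8 changed with the regions counted, since genes differ in how many unlisted regions they hold.

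Candidate regions outside the selection, some near a start and others far from one, were examined over each RefSeq span with 5 kb on each side. That window held 47 further candidate regions, some of which overlap neighbouring genes. Of the 47, 3 were in the hypomethylated list but attributed there to other genes. These lay near Lck (Fam167b, -23.6 points), Lat (Spns1, -20.4 points) and Tbx21 (Gm11572, -20.1 points). limma called 38 of the 47 lower (80.9%) and 0 higher, beside 93.5% of all candidate regions. Of the 9 not called, 7 had wild-type levels under 5%, chosen for mention after their values were seen. Of the 38 called lower, 0 had such a level. The 7 of 47 stand beside 2.94% of all candidate regions with a wild-type level under 5%. Another start of Tcf7 had a candidate region 16 bp away that was called lower (52281266 to 52282579). It had 36.8% in mutant cells, against 56.3% in wild-type cells, a difference of -19.5 points (limma SE 2.39, adjusted p = 0.000115). Among those not called, the Tcf7 region overlapping the start with 45 CpGs (52282785 to 52283127) had 0.923% in mutant cells, against 1.21% in wild-type cells. At Tbx21 the region just inside the start (97114877 to 97114972) had 0.778% and 3.44% in the same order, at Gata3 (9877617 to 9877703) 2.52% and 0.259%, and in Lck (129556087 to 129556407) 1.24% and 1.58%. Upstream of Lef1, 2 regions in Gm36603 had 2.89% and 0.694% in mutant cells, against 0.244% and 1.69% in wild-type cells. The 2.89% came from mutant replicate 2 alone, with 0.0%, 8.67% and 0.0% in mutant replicates 1 to 3. In the Gata3 region mutant replicate 2 was also the highest, with 1.33%, 5.78% and 0.444% in mutant replicates 1 to 3. At Lat, a region 0.344 kb inside the start (126369236 to 126369486) had 4.56%, 5.89% and 5.89% in mutant replicates 1 to 3, against 2.33%, 2.56% and 2.56% in wild-type replicates 1 to 3. Every mutant replicate lay above every wild-type replicate there, by 2.96 points on average, but the difference did not pass the test (limma SE 1.94, adjusted p = 0.17). The other 2 not called were in Lef1 (131149952 to 131150289; 83.7% in mutant cells, against 91.0% in wild-type cells) and in Eomes (118479452 to 118479681; 14.4% and 19.9%). Of the 3151 candidate regions under 5% in the wild type, 0.127% were called lower.

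Of the 16 start windows, 6 overlapped a candidate region and 2 a listed one, beside 11.4% and 4.06% of all 32851 windows. The 16 windows belong to 9 genes and those of a gene can lie close together, so the shares were not tested. Each of these 9 genes holds a listed region by the rule of selection, and both listed overlaps are with selected regions. The rule can therefore raise the shares above those of all windows, and they are not evidence about the starts of these genes. The 2 windows at a listed region were the inner start of Lck with 5 CpGs and the internal start of Zap70 with 9. Of the 4 windows with 20 or more CpGs, at Tcf7, Lef1, Gata3 and Tbx21, 1 overlapped a candidate region and 0 a listed one. Of all windows with 20 or more CpGs, 8.63% overlapped a candidate region and 1.0% a listed one, and of all windows with 5 to 9 CpGs, 22.7% and 10.6% in the same order. Regions that were never tabulated were not analysed here.

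**Figure D3:**
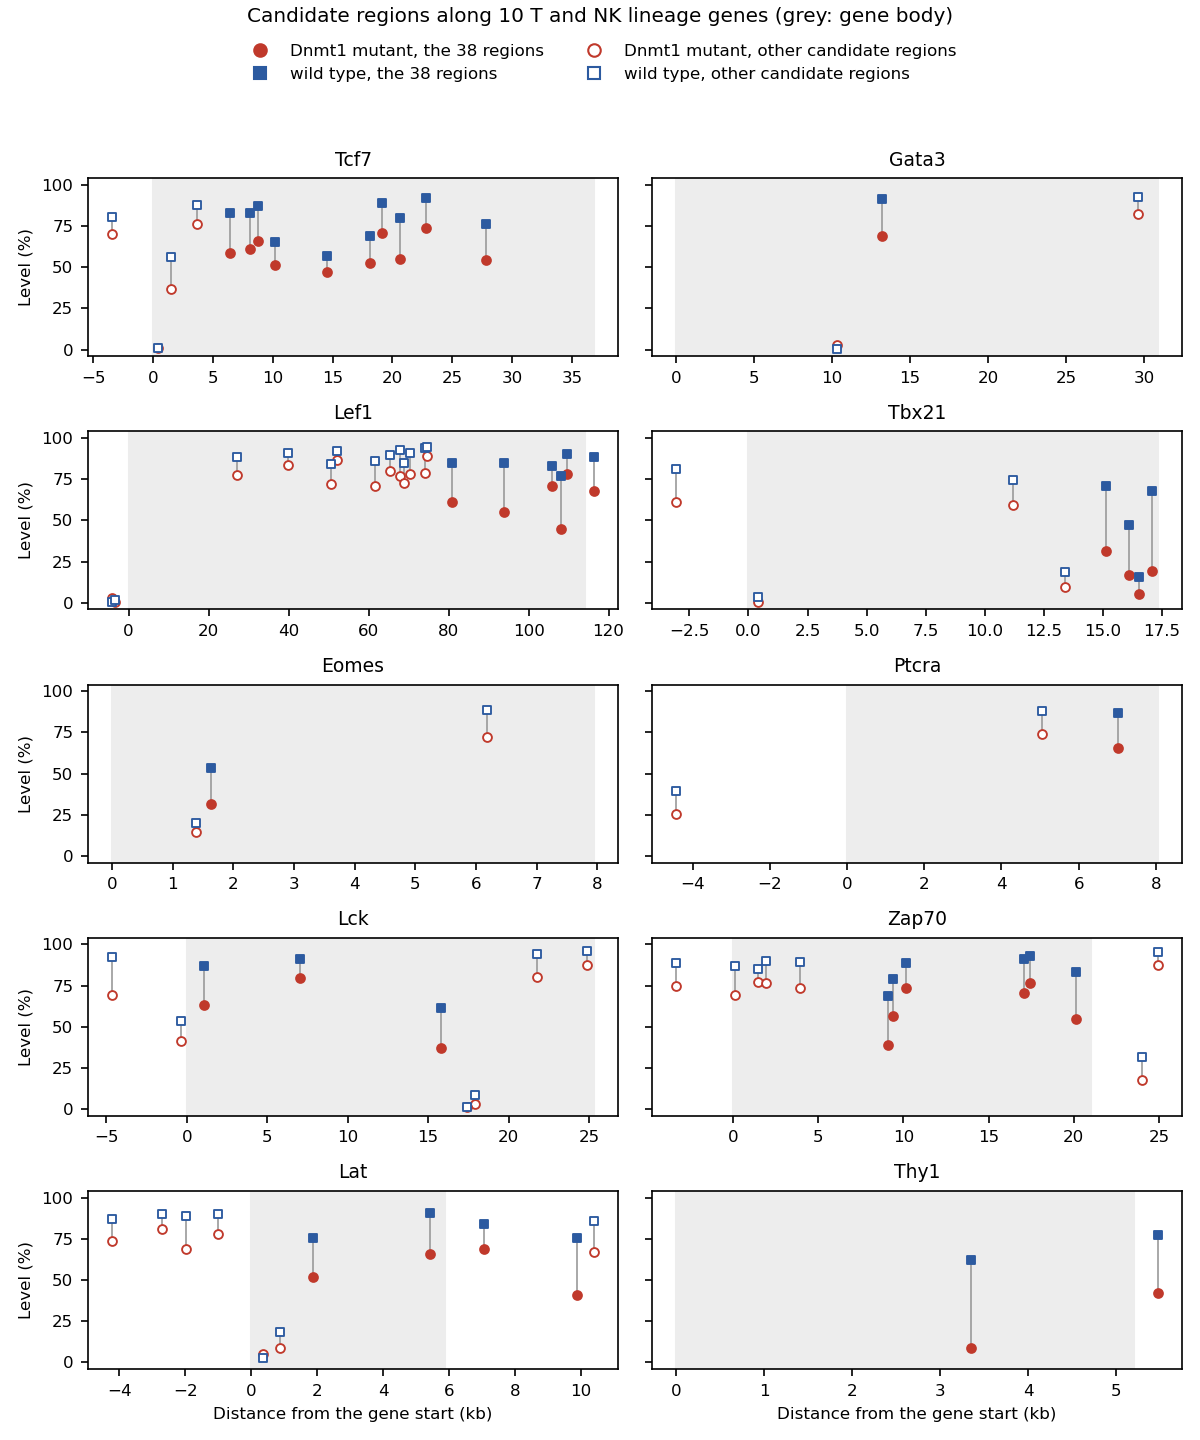
Mean level (y axis, %) of each candidate region against the distance of its middle from the gene start (x axis, kb) for the 10 genes; filled symbols are the 38 regions and open symbols the other 47 candidate regions within 5 kb of the gene (circles, Dnmt1 mutant; squares, wild type; grey, RefSeq gene span). Levels near 0 in both genotypes appear at or near the starts of Tcf7, Tbx21 and Lat, upstream of Lef1 and inside Gata3 and Lck, and vertical lines join the genotypes of a region. The Gata3 region near 0 is 10.3 kb from the start of the gene span but 897 bp from the RefSeq start matched for Gata3.

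Other genes of the pathway were counted in a list of 34 that excluded the 10 genes and Bcl11b. In their RefSeq spans with 5 kb on each side, 25 of the 34 had a candidate region and 24 had one called lower by limma. Of their 219 candidate regions, 205 were called lower (93.6%), 0 higher and 14 neither, beside 93.5% lower over all candidate regions. The median difference was -16.9 points, against -16.6 points over all candidate regions. No candidate region lay at Cd3e, Gzmb, Id2, Ifng, Klrb1c, Klrd1, Klrk1, Ncr1 or Sh2d1a. By the number of rows in the authors' deposited table within 5000 bp, Dtx1 led with 10, before Runx3 with 8, Cd247 with 6 and Notch1 with 5, and Cd5, Cd6, Notch3 and Zbtb7b had 4 each. Dtx1, a Notch target that encodes a ubiquitin ligase, averaged 24.9% ± 1.28 in mutant cells, against 50.3% ± 0.438 in wild-type cells (SD, n = 3 each) over 22 candidate regions, 20 of them called lower. Cd247, which encodes the CD3 zeta chain that Zap70 binds, averaged 59.7% ± 2.78 in mutant cells, against 77.4% ± 0.595 in wild-type cells (SD, n = 3 each) over 22 regions, 21 of them called lower. Notch1, the receptor that starts T cell development, averaged 63.5% ± 2.58 in mutant cells, against 79.1% ± 0.814 in wild-type cells (SD, n = 3 each) over 26 regions, 25 of them called lower. Runx3, a factor of CD8 T cells and NK cells, averaged 52.7% ± 1.69 in mutant cells, against 68.4% ± 0.632 in wild-type cells (SD, n = 3 each) over 31 regions, with 28 called lower.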

How the data were processed

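DNA of lin- bone marrow progenitors was sequenced for 6 Dnmt1 mutant and 6 wild-type libraries, paired-end with 100 bp reads, per the labels' protocols. The submitters' processing notes name mm10; no aligner or methylation caller is named in the sources used here. For each candidate region and replicate column the authors deposited a methylation level as a fraction, given in this text in percent. The authors' deposited lists of regions, from metilene per the file names, give a metilene q-value and other p-values, a group mean as a fraction, a difference of means (a score) and CpG numbers. Whether a column merges both kits is not stated. Without counts no coverage minimum or counting interval was possible.

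The members and gene lists were chosen with earlier results of these data known. Coordinates are the authors'. Differences are mutant minus wild type, from the means of the replicate columns, which departed from the authors' deposited group means by up to 5.47 points for mutant cells and 4.43 for wild-type cells among the 26. All 107115 regions entered 1 limma fit of percent levels (limma 3.58.1, R 4.3.3), tested beforehand on simulated data, and p-values adjusted by Benjamini-Hochberg were called under 0.05. RefSeq (GRCm38.p6) gave gene spans, without exons, so exon and intron are not given. The most similar pair of columns had a median absolute difference of 2.44 points over regions, so none was a duplicate. Named regions were each gene's largest loss, the 3 with most CpGs, the 3 with the widest mutant range and, from the further list, the 5 genes with most listed regions, with ties at the fifth place named. The planned choice of the region nearest each gene gave no single region, since most distances were 0. Start windows, regions outside the selection and the sequences printed were added after values were seen. Python 3.11.15, pandas 2.3.3, numpy 2.4.6 and matplotlib 3.10.9 were used.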

Additional observations from a re-analysis of the deposited data

How the results depend on the processing

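All 38 regions were called lower by limma on a logit scale, with a trended and robust spread, with the replicate block and without each replicate in turn. In the main fit 93.5% of all candidate regions were called lower. The rule took the regions from this contrast on these same columns, so their counts are not evidence about the genes. The count fell to 4 with at least 20 CpGs required, to 7 with a metilene q under 0.05 and to 36 with a distance of at most 2000 bp, each a smaller set of regions with all of it called. The 7 were 26.9% of the 26 listed regions, beside 23.3% of all listed regions. The rest of the 26 did not have a metilene q under 0.05. With every candidate region of the gene spans it was 76 of 85, beside 93.5% of all candidate regions, an alternative chosen after seeing the data. Of the 219 regions of further T and NK genes, 68 were called with a loss of at least 20 points required, beside 34.4% of all candidate regions. Without each replicate in turn, between 193 and 205 of the 219 were called. The difference over the listed regions was -25.3 points as a difference of medians and -32.8 points for the 7 regions with a metilene q under 0.05, and between -29.1 and -27.0 points without each replicate in turn. Over the unlisted regions that range was -15.0 to -13.0 points. The gap between the genes of largest and smallest average loss, over listed and unlisted regions, was 25.1 points, 7.06 over the 3 genes with a region of at least 20 CpGs, 31.4 over the 6 genes with a metilene q under 0.05, and between 22.1 and 29.4 points without each replicate in turn. Deviations of columns with the same replicate number correlated at 0.00489 to 0.05, and those of columns with different numbers at -0.0507 to 0.0117. For each mutant column the wild-type column of the same number had the highest value. All values were near 0, and whether equal numbers mark paired samples cannot be told from them. With the replicate block, limma called 38 regions and 202 of the 219. Unknown coverage limits how far small differences between neighbouring regions can be read.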

Other observations

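Beyond the 10 genes, 2 further T and NK genes are given because their levels stood out when seen. The single candidate region of Tox, an HMG-box factor of thymocyte development, had 24.3% ± 2.63 in mutant cells, against 60.8% ± 8.48 in wild-type cells (SD, n = 3 each). The 3 candidate regions of Cd2, which encodes an adhesion receptor of T and NK cells, averaged 34.9% ± 5.93 in mutant cells, against 69.8% ± 0.860 in wild-type cells (SD, n = 3 each).

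At Zap70, listed regions separated by 29 bp had 38.9% and 56.4% in mutant cells, against 68.8% and 79.2% in wild-type cells, and the replicates of the regions did not overlap within a genotype.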
